A study of Mus musculus with 12 samples.

Results

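A set of 10 genes of the multiciliated cell program was followed in 12 bulk RNA libraries of mouse airway organoids, namely the regulators Mcidas, Myb, Foxj1, Rfx2 and Rfx3, the centriole genes Ccno and Deup1, the dynein gene Dnah5 and the tubulin genes Tubb4b and Tuba1a. They were chosen by name, and all 10 were found among the 55401 genes listed. Organoids were grown in Cultrex from proximal airway epithelial cells of adult C57BL/6J mice, and in all samples, controls included, the cells carried a lentiviral vector for a Histone2A-mCherry fusion protein driven by the p63 promoter. In the ablation group (6 libraries), a femtosecond laser removed 10 neighboring cells in every organoid of a dish, and in the control group (6 libraries) no cells were ablated. Each library came from a dish of 45 organoids that had been moved into unsupplemented FluoroBrite DMEM 1 h before the laser step and was harvested 4.5 h after it. Until the move into FluoroBrite DMEM all organoids were kept in a growth medium with 50% L-WRN supernatant, epidermal growth factor and the kinase inhibitor Y-27632. Libraries of the same number (1, 3, 4, 5, 6 and 7) formed a pair of equal passage and culture day, which was day 14 for pairs 1 and 4, day 15 for pair 5, day 18 for pair 6, day 19 for pair 7 and day 20 for pair 3. Library numbers formed 2 runs, called library set 1 (pairs 1, 3 and 5) and library set 2 (pairs 4, 6 and 7). The titles of controls 4, 6 and 7 contain the word ablation although their treatment label says control, and they were taken as controls.

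Multiciliated cells are the airway cells that move mucus with many motile cilia on their surface. They arise from basal or secretory precursors when geminin-related coregulators such as Mcidas switch on a program in which centrioles are amplified, partly on structures called deuterosomes. Foxj1 and factors of the RFX family then turn on the genes of the ciliary axoneme, a cylinder of tubulin doublets that carries dynein motors. Several parts of this machinery are shared with other cells, since RFX factors, tubulins and intraflagellar transport also serve primary cilia and the mitotic spindle.

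The values were the normalized counts of the deposited table, read counts divided by 1 size factor per library, and they summed to 27297950 to 28504390 per library, with medians of 27700102 after ablation and 27950316 in the control. A value of 1 was worth about 1 read, so that a value of 0 allowed up to 2.82 to 3.51 normalized counts, which is 3 reads. The 13 basal cell markers were detected at a median of 19590 normalized counts and the 12 proliferation genes at 4159. Of 13 markers of stromal, endothelial and immune cells, 10 were under a mean of 10, a share near the 75.1% of all genes listed. In bulk samples, fewer cells of a type and less RNA per cell cannot be told apart.

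The 10 genes fell into those that were well measured and those that were near zero. Near zero was taken as a mean under 10 normalized counts over the 12 libraries, which held for 75.1% of all genes listed. Tubb4b, Tuba1a, Rfx2, Rfx3 and Myb had means between 208 and 12852 normalized counts, whereas Foxj1 (9.87), Ccno (7.48), Dnah5 (3.48), Mcidas (0.894) and Deup1 (0.0823) were near zero. Levels were compared between genes as normalized counts per kilobase of exons, given as mean ± SD over the 12 libraries. Tubb4b led at 6155 ± 834, followed by Tuba1a at 242 ± 39.6 and Rfx2 at 59.5 ± 5.97, and the ranges of these 3 genes did not overlap. Myb (23.2 ± 7.36) and Rfx3 (20.6 ± 1.52) did not differ beyond their spread. Foxj1 (3.76 ± 1.79) and Ccno (2.93 ± 1.25) followed and overlapped each other, as did Mcidas (0.376 ± 0.372), Dnah5 (0.223 ± 0.115) and Deup1 (0.0248 ± 0.0861). The highest library of Mcidas (0.847 per kilobase) also reached above the lowest library of Ccno (0.773 per kilobase).

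**Figure D1:**
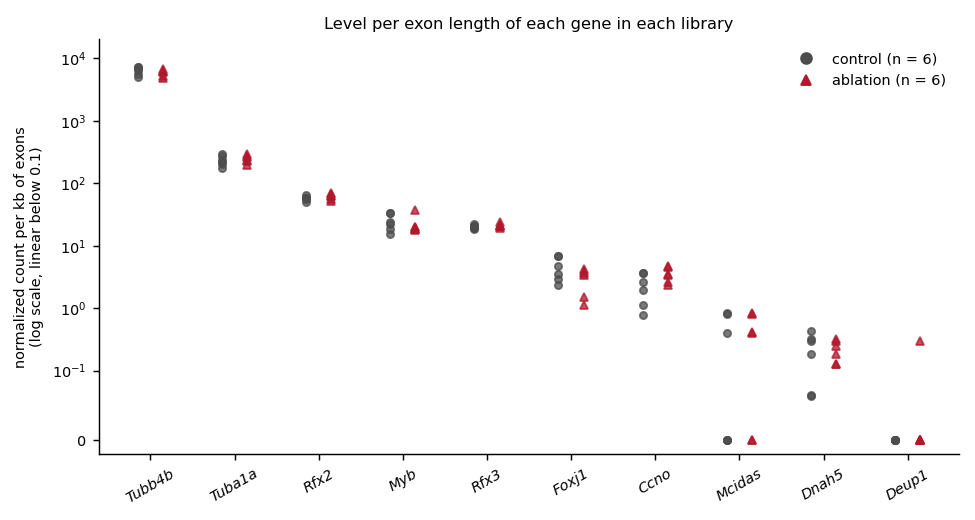
Normalized count per kilobase of exons (vertical axis, logarithmic, linear below 0.1) of the 10 genes in each of 6 control libraries (grey circles) and 6 ablation libraries (red triangles). Tubb4b lies between 4870 and 7325 in every library, and Deup1 lies at 0 in 11 of 12 libraries.

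Mcidas, a coregulator at the top of the program, was detected by single reads. Its values after ablation were 0.975, 0, 0, 0.939, 1.97 and 1.95 normalized counts in libraries 1, 3, 4, 5, 6 and 7, and those of the controls in the same order were 0.965, 0, 2.01, 1.91, 0 and 0. Both groups held libraries at 0, 2 after ablation and 3 in the control, and the groups overlapped. The means of 0.972 ± 0.877 and 0.815 ± 0.965 (SD, n = 6 each) gave p = 0.827 in a two-sided exact permutation test over 924 assignments, which cannot go below 0.00216. The direction of this difference changed when any of 5 libraries (ablation 6 or 7, control 3, 6 or 7) was left out. Gmnc, a geminin relative that acts above Mcidas, gave 1 read in ablation 5 (0.939 normalized counts) and 0 in the other libraries.

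Mcidas lies on chromosome 13 (GRCm38.p6, 112993845 to 113000394, plus strand) 3067 bases downstream of Ccno (112987802 to 112990777, plus strand), a cyclin-like gene needed for centriole amplification. The neighboring Cdc20b (113035111 to 113091195) and the 3 Mir449 genes within it were at 0 in all libraries. Mature miRNAs are not captured in poly(A) libraries. Well measured genes lay nearby, with a mean of 1413 normalized counts for Dhx29 upstream of Ccno and 1495 for Gpx8, which lies within Cdc20b on the opposite strand. Beyond Cdc20b, Gzma (0.169) and Gzmk (0.180) were near zero.

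Ccno was detected in every library. After ablation it had 8.77, 8.99, 5.94, 12.2, 11.8 and 6.81 normalized counts in libraries 1, 3, 4, 5, 6 and 7, and in the control 6.76, 9.21, 5.03, 2.87, 1.98 and 9.35. Ablation libraries 5 and 6 lay above every control, and the remaining 4 lay within the range of the controls. The means were 9.09 ± 2.55 after ablation and 5.87 ± 3.13 in the control (SD, n = 6 each), and Ccno was higher in 4 of 6 pairs. The difference of 3.23 normalized counts did not pass the exact permutation test (p = 0.0823), nor the exact test over pairs in which the signs of the 6 differences are flipped (p = 0.25, smallest possible 0.03125). Without control 3 or without control 7 the exact permutation test gave p = 0.0498, with differences of 3.90 and 3.93 normalized counts.

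Deup1 encodes the scaffold of the deuterosome and lies on chromosome 9 (15559864 to 15627933, minus strand). It gave 1 read in ablation 6 (0.987 normalized counts) and 0 in the other 11 libraries, so that no difference between groups could be detected at this depth (exact permutation test, p = 1). Its paralog Cep63, which serves the duplication of parental centrioles in dividing cells, had a mean of 1178 ± 34.6 normalized counts after ablation and 1179 ± 32.4 in the control (SD, n = 6 each). Reads of Cep63 were thus abundant in all 12 libraries in which Deup1 had 1 read in all.

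Promoters of the 10 genes were searched on both strands for the X-box, a binding motif of RFX factors of 14 bases that was written as the parts GTNNCC and GNAAC with 3 bases between them, since Rfx2 and Rfx3 were both well measured here. RefSeq promoters on GRCm38.p6, from 250 bases before to 50 bases after the start, were at hand for 9 of the 10 genes, with 10 promoters in all (Foxj1 had no entry). The motif was found in one Deup1 promoter and in the Ccno promoter, and in 2.17% of all 32851 promoters. Both sites are shown along the gene's own strand with the motif in capitals, at chr9:15627912-15627941 (minus strand) for Deup1 and chr13:112987575-112987604 (plus strand, motif read on the opposite strand) for Ccno.
Deup1: gaggccgcGTCTCCATGGCAACccactggg
Ccno: gggctgcgGTTGCCACGGTGACgacagacg
Both sites lie within the promoters searched and ended 74 bases and 206 bases before the respective RefSeq transcription start. For Deup1 this start differs from that of the gene span given above, which begins at 15627933 on the minus strand. The Deup1 site therefore lies inside that span. The match is a description of these letters and no measurement of binding. The forkhead motif TGTTTAC was found in the Myb promoter, 33 to 39 bases after the start, and in 3.65% of all promoters. It overlapped no X-box.

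Myb, a transcription factor that acts early in multiciliated cell formation and is also used by proliferating progenitors, lies on chromosome 10 (21124935 to 21160984, minus strand). Its values after ablation were 333, 165, 176, 166, 180 and 161 normalized counts in libraries 1, 3, 4, 5, 6 and 7, and those of the controls were 299, 300.0, 213, 164, 135 and 199. Ablation 1 stood far above the other ablation libraries, while its own control was also among the 2 highest of the controls, so that pair 1 was high as a pair. The other high control, number 3, had no such partner. Means were 197 ± 67.3 after ablation and 218 ± 68.5 in the control (SD, n = 6 each), with 3 of 6 pairs higher and 3 lower. Of its words of 75 bases, the read length, 3.13% were shared with Gm26577, which lies on the opposite strand at a mean of 0.159 normalized counts.

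Foxj1, the main switch for motile cilia genes, lies on chromosome 11 (116330704 to 116335399, minus strand). It was found in every library at low values, with 9.75, 10.99, 8.91, 10.3, 3.95 and 2.92 normalized counts after ablation in libraries 1, 3, 4, 5, 6 and 7, and with 7.72, 6.14, 18.1, 12.4, 17.8 and 9.35 in the controls. Controls 4, 5 and 6 lay above every ablation library, and ablation 6 and 7 lay below every control. The means of 7.81 ± 3.47 and 11.9 ± 5.11 (SD, n = 6 each) differed by -4.12 normalized counts. This did not pass the exact permutation test (p = 0.136) or the exact sign-flip test over pairs (p = 0.219). Foxj1 was lower in 4 of 6 pairs. In library set 1 the mean was 10.4 after ablation and 8.77 in the control, and in library set 2 it was 5.26 and 15.1. This difference between the sets was not tested, and the 3 controls of set 2 are those whose titles name ablation.

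Rfx2 and Rfx3, the RFX factors that act with Foxj1 and also serve primary cilia, were the steadiest genes of the set. Rfx2 (chromosome 17, 56775897 to 56831013, minus strand) had 414, 518, 449, 485, 452 and 375 normalized counts after ablation and 424, 426, 411, 470.0, 429 and 365 in the controls, in the order 1, 3, 4, 5, 6 and 7. Rfx3 (chromosome 19, 27761721 to 28011166, minus strand) had 230.1, 227, 238, 214, 262 and 229 after ablation and 215, 209, 227, 201, 248 and 226 in the controls. Over the controls the standard deviation was 8.09% of the mean for Rfx2 and 7.49% for Rfx3, against 31.4% for Myb. Ablation and control overlapped for both genes. Rfx2 was higher in 5 of 6 pairs and Rfx3 in 6 of 6, each by small amounts, and 5.17% of all genes tested were higher in 6 of 6 pairs (9.8% had the same direction in 6 of 6, either way).

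Dnah5, a heavy chain of the outer dynein arms and the longest gene of the set (15637 exon bases; chromosome 15, 28203752 to 28472052, plus strand), was at 2.92, 2.00, 4.95, 4.69, 1.97 and 3.89 normalized counts after ablation. The controls were at 6.76, 1.02, 5.03, 2.87, 0.988 and 4.67, in the order 1, 3, 4, 5, 6 and 7. All ablation libraries lay within the range of the controls. The means of 3.41 ± 1.31 and 3.56 ± 2.33 (SD, n = 6 each) did not differ beyond the spread (exact permutation test, p = 0.894), and the sign of the difference changed in 5 of 12 cases when 1 library was left out.

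Tubb4b, a beta-tubulin of ciliary axonemes that many dividing cells also use, lies on chromosome 2 (25222160 to 25224702, minus strand). It had 10168, 12710, 13122, 12854, 14053 and 10936 normalized counts after ablation and 10542, 15295, 13704, 13987, 15292 and 11560 in the controls, in the order 1, 3, 4, 5, 6 and 7. The groups overlapped, yet the ablation library was the lower in each of the 6 pairs, which held for 4.63% of all genes tested. Pairs 1 and 7 were the lowest in both groups, and the same 2 pairs had the lowest summed level of the 12 proliferation genes, between 51882 and 64353 normalized counts against 72956 to 87206 in the other pairs. The part of proliferating cells in the Tubb4b level was not tested.

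Tuba1a, an alpha-tubulin (chromosome 15, 98949837 to 98953703, minus strand), had 408, 356, 498, 539, 480 and 428 normalized counts after ablation and 360.0, 320, 429, 529, 487 and 391 in the controls. Pair 3 was the lowest and pair 5 the highest in both groups, and Tuba1a was higher after ablation in 5 of 6 pairs. How well the 2 tubulin genes can be told from their relatives differs. Tuba1a shared 98.3% of its coding bases with Tuba1b and 98.4% with Tuba1c, the last 60 coding bases left aside, whereas Tubb4b shared between 81.6% and 84.1% with 6 other beta-tubulins. Of the distinct words of 75 bases in their GENCODE transcripts, 70.4% occurred in other genes for Tuba1a and 29.9% for Tubb4b, the latter mainly in the pseudogene Tubb4b-ps1 (24.7%), which had a mean of 18.2 normalized counts. The libraries were read as pairs (2 × 75 bases), whereas these shares treat each read alone and do not give the share of ambiguous pairs. Tuba1a also shares 473 exon bases with Gm49450 on the same strand, whose mean was 0.242 normalized counts. The count of Tuba1a is therefore uncertain to an extent that was not tested. The last 60 coding bases of Tubb4b, which encode the variable tail of the tubulin without the stop codon, show how it differs from a relative and are given from the GRCm38.p6 genome along the gene's strand, with capitals where Tubb2a differs from Tubb4b. Tubb4b (chr2:25222311-25222370, minus strand) is followed by Tubb2a (chr13:34074471-34074530, minus strand).
Tubb4b: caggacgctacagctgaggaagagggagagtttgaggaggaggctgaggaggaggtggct
Tubb2a: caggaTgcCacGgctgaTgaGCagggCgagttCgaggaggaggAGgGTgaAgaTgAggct
Tubb2a differed from Tubb4b at 15 of these 60 bases. Per kilobase of exons, Tuba1b (2396 normalized counts) and Tuba1c (1719) stood above Tuba1a (242), and Tubb5 (7122) was near Tubb4b (6155), ahead of Tubb2a (491) and Tubb2b (112). Tubb4a, the nearest namesake of Tubb4b, was near zero with a mean of 1.56 normalized counts.

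**Figure D2:**
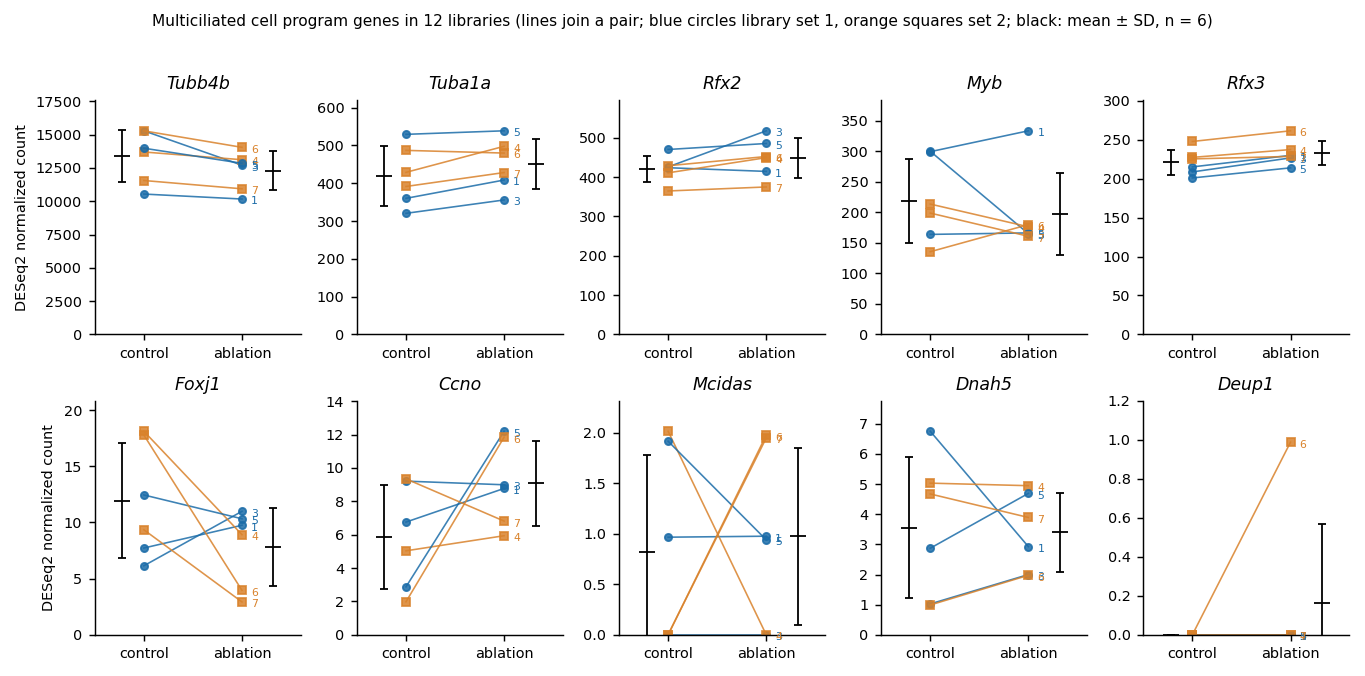
Normalized count (vertical axis, from 0, scaled per gene) of each of the 10 genes in control and ablation libraries, with a line for each pair, its number at the right, and black bars for mean ± SD (n = 6 per group). In each of the 6 pairs Tubb4b is lower and Rfx3 higher at ablation, and the lower row shows the 5 genes with means under 10.

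Whether ablation moved these genes was tested with limma on log2(normalized count + 1), with condition and library set in the model, over the 13792 genes that reached 10 normalized counts in 6 or more of the libraries. Of the 10 genes, 5 were tested, Tubb4b, Tuba1a, Rfx2, Rfx3 and Myb, and the others were below this minimum. None of the 5 passed an adjusted p of 0.05, and neither did any other gene in limma (0% of genes tested, with 1083 genes or 7.85% at an unadjusted p under 0.05) or in edgeR on the recovered reads of 9 libraries (0 genes). Ablation and control overlapped for all 5, and groups without overlap were found for 0.457% of the genes tested. Since the libraries of a pair deviated together, the model with the pair in place of the library set is given as well. It called 150 genes, 1.09% of those tested, and again none of the 5.

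The log2 change of Tubb4b was -0.12 (ablation minus control), with a 95% interval from -0.34 to 0.11 (SE 0.105, adjusted p = 0.811 by limma). In the paired model the interval of the same value narrowed to -0.20 to -0.03 (SE 0.0384, unadjusted p = 0.00904), but the adjusted p was 0.147. At an unadjusted p under 0.05 the paired model held 17.6% of all genes tested. That of Tuba1a was 0.11, with a 95% interval from -0.16 to 0.39 in the library set model and from -0.01 to 0.24 in the paired model (adjusted p = 0.852 and 0.329). The 2 tubulin genes thus had estimates of opposite sign, neither of which passed the test.

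For Rfx2 the log2 change was 0.09 (95% interval -0.08 to 0.26, adjusted p = 0.804, and -0.04 to 0.22 with adjusted p = 0.459 in the paired model). For Rfx3 it was 0.08 (95% interval -0.07 to 0.23 in both models, adjusted p = 0.813 and 0.597 by limma). Myb had the widest interval, with a log2 change of -0.14 (-0.58 to 0.30, adjusted p = 0.887, and -0.44 to 0.15 with adjusted p = 0.624 in the paired model), and without pair 3 its paired estimate was 0.0007.

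The effect of ablation was also compared between the library sets, with the pair as a term. The differences (set 2 minus set 1, log2 scale) were 0.06 for Tubb4b, 0.17 for Myb, -0.01 for Tuba1a, -0.02 for Rfx2 and -0.05 for Rfx3, with adjusted p from 0.880 to 0.982 by limma. Of all genes tested, 1 (0.00725%) passed.

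**Figure D3:**
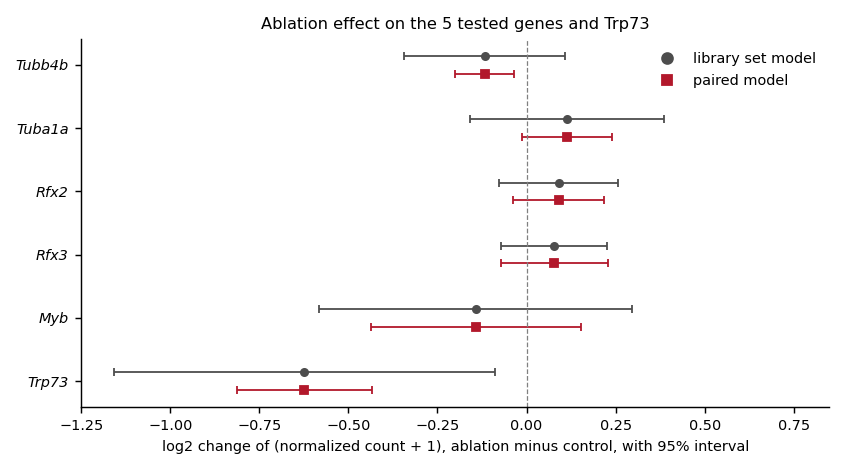
Log2 change of (normalized count + 1), ablation minus control (horizontal axis), with 95% intervals from the library set model (grey circles) and the paired model (red squares) for the 5 tested genes and Trp73. The paired intervals of Tubb4b and Trp73 lie below 0, and Trp73 alone among the 6 had an adjusted p under 0.05, in the paired model.

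Beyond the 10 genes, the wider ciliary machinery was described by lists. Of 9 other regulators, 6 were tested and the 3 untested ones, Gmnc, Foxn4 and Cdc20b, had means under 10, the latter 2 at 0 throughout. One of the 6 was called in the paired model, Trp73, which encodes p73, a relative of p63 that acts upstream of Foxj1 and is also present in basal cells. Its values were 564, 288, 242, 187, 288 and 333 normalized counts after ablation and 650, 544, 451, 283, 404 and 521 in the controls, in the order 1, 3, 4, 5, 6 and 7. The groups overlapped, and every pair was lower after ablation. The log2 change was -0.62 (SE 0.0880 and adjusted p = 0.00899 in the paired model, SE 0.247 and adjusted p = 0.616 in the library set model). Of all genes tested, 0.413% were called lower after ablation in the paired model. Without pair 4 the adjusted p was 0.0562 in the paired model, and with plain eBayes variances it was 0.121. Trp73 shares 280 exon bases with Trp73os on the opposite strand, whose mean was 1.43 normalized counts. The highest 3 of these regulators, Tfdp1, Rfx7 and E2f4, had means of 3890, 2163 and 1762 normalized counts and log2 changes of -0.01, -0.04 and -0.04, with adjusted p of 0.958, 0.672 and 0.668 in the paired model.

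General parts of centrioles and cilia were present while parts specific to motile cilia were mostly near zero. Of 25 centriole and deuterosome genes, Deup1 not included, 24 were tested, led by Pcm1 (3497 normalized counts), Odf2 (2921) and Cep83 (1779). Of 43 genes of intraflagellar transport and the BBSome, which carry cargo in cilia of every kind, 42 were tested, with Kif3b (2038), Ift52 (1619) and Ift80 (1343) at the top. In contrast, 41 of 63 genes of the motile axoneme and dynein assembly had means under 10 and 7 were at 0 in all libraries, and the median of this list was 3.28 normalized counts. Its highest genes were Gas8 (1023), Dnaaf5 (970) and Spef1 (407). Likewise, 17 of 23 multiciliated cell markers had means under 10 and 3 were at 0 in all libraries. Over all 55401 genes listed, 75.1% had means under 10 and 26867 were at 0 in all libraries. Neither list was thus above the share over all genes listed, which counts the genes at 0 in all libraries. In the centriole list 1 of 25 genes and in the transport list 1 of 43 had means under 10. Whether genes of motile cilia were particularly lacking was not tested. The summed level of the multiciliated cell markers lay between 336 and 394 normalized counts after ablation and between 337 and 405 in the control. Tctex1d2 alone took a mean of 209 of it.

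No gene of the centriole, transport, axoneme or marker lists was called by limma in either model, and the 21 tubulin and tubulin acetylation genes (14 tested) held no call either. In the paired model the median log2 changes were 0.05 for the centriole list, -0.09 for the motile axoneme list (22 tested), -0.07 for the multiciliated markers (6 tested), -0.05 for intraflagellar transport and -0.01 for the tubulin list, beside -0.004 over all genes tested and 0.08 over the 5 tested genes of the set. An unadjusted p under 0.05 was counted in that model for 6 of 24 centriole genes (5 higher, 1 lower) and 2 of 22 motile axoneme genes (1 higher, 1 lower). It was also counted for 1 of 6 multiciliated markers (lower), 10 of 42 transport genes (2 higher, 8 lower) and 3 of 14 tubulin genes (1 higher, 2 lower). The share over all genes tested was 17.6%, with 1211 genes higher and 1222 lower. The multiciliated marker was Wdr78, with 45.0 ± 7.46 normalized counts after ablation and 61.0 ± 10.9 in the control (SD, n = 6 each). It was lower in 6 of 6 pairs, with an adjusted p of 0.114 by limma in the paired model.

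Markers of other cells were compared in the same libraries. In the paired model, 1.09% of all genes tested were called and 17.6% had an unadjusted p under 0.05. In each of 3 lists, 1 gene was called in this model. None of these calls was made in the library set model or with plain eBayes variances. All 13 basal markers were tested, with Krt5 (276858 normalized counts) and Krt14 (239821), keratins of basal cells, at the top. Trp63 was called (higher, adjusted p = 0.00825 by limma), but not without pair 4, and 9 of the 13 estimates were below 0 (median log2 change -0.11), with 2 genes higher and 4 lower at an unadjusted p under 0.05. Of 14 secretory and goblet cell markers 8 were tested and Aldh1a1 was called (higher, adjusted p = 0.00184 by limma), while 6 of the 8 estimates were below 0 (median -0.11). Of 8 general markers of the airway epithelium 7 were tested and Sox2 was called (lower, adjusted p = 0.0488 by limma), a call that was lost when any of the 6 pairs was left out. None of 12 proliferation genes was called by limma (3 at an unadjusted p under 0.05 in the paired model, all higher), nor was any of 12 markers of rare epithelial cells (5 tested, 1 at that level) or of 13 markers of stromal, endothelial and immune cells (3 tested, 0 at that level). The part of these cell types in the values of the 10 genes was not tested.

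**Figure D4:**
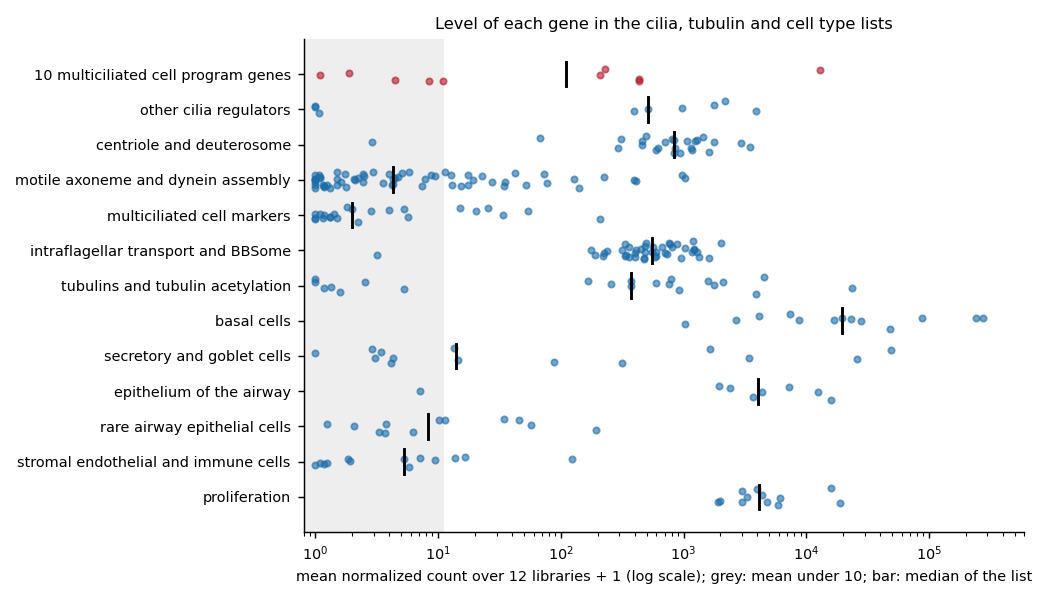
Mean normalized count over 12 libraries plus 1 (horizontal axis, logarithmic) of each gene in the set of 10 (red) and in 12 lists (blue), with a black bar at the median of each list and grey shading where the mean is under 10. The motile axoneme list and the multiciliated markers lie mostly in the grey range, with 41 of 63 and 17 of 23 genes under 10, beside 75.1% of all genes listed. The centriole and intraflagellar transport lists lie mostly above it.

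Culture day was compared over the means of pairs, late (day 18 to 20, pairs 3, 6 and 7) against early (day 14 and 15, pairs 1, 4 and 5), as motile cilia form late in airway cultures. Tubb4b had pair means of 10355, 13413 and 13420 normalized counts in the early pairs and 11248, 14003 and 14672 in the late pairs, which overlapped. Myb had 165, 195 and 316 in the early and 158, 180 and 232 in the late pairs. The log2 changes (late minus early) were 0.10 for Tubb4b, -0.23 for Myb, -0.17 for Tuba1a, -0.06 for Rfx2 and 0.08 for Rfx3, each with an adjusted p of 0.994 by limma, and 0% of the genes tested passed (4.52% at an unadjusted p under 0.05). The signs for Tubb4b and Myb turned when pair 1 was left out, and that for Rfx2 when pair 5 or pair 7 was left out. The near zero genes overlapped between early and late days as well, with pair means of 8.73 to 13.5 for Foxj1 in the early and 6.13 to 10.9 in the late pairs, and of 5.49 to 7.76 for Ccno in the early and 6.91 to 9.10 in the late pairs. Pairs 6 and 7 also came from the latest passage, so that day and passage cannot be told apart fully.

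**Figure D5:**
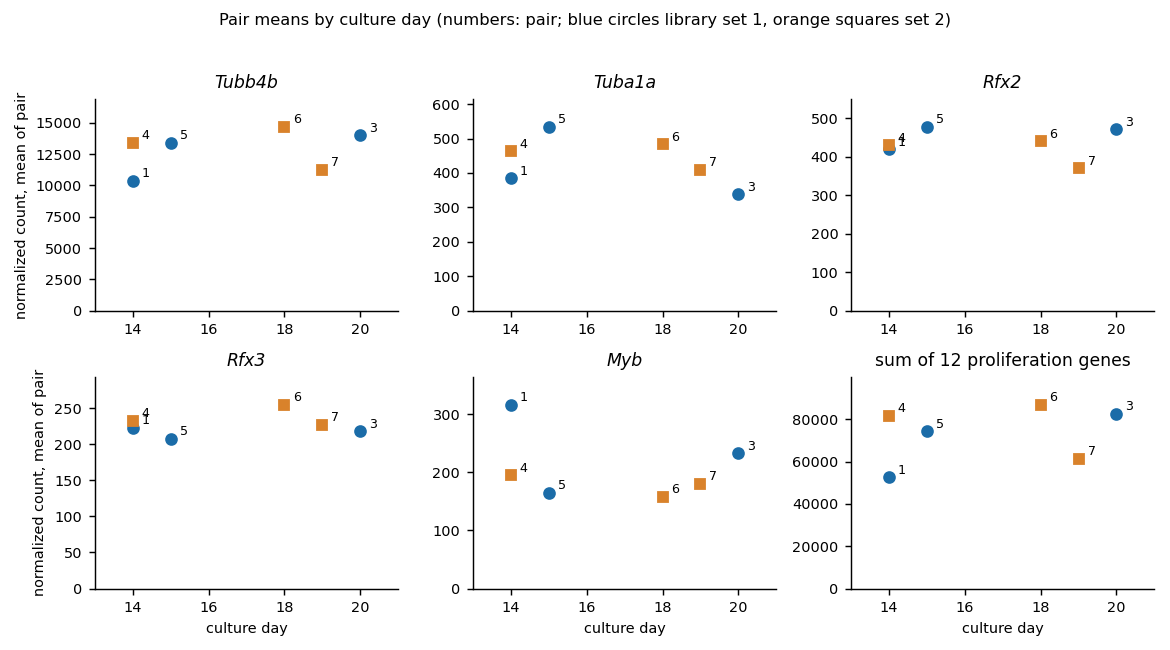
Mean normalized count of each pair (vertical axis, from 0) against culture day (horizontal axis) for the 5 tested genes and the sum of 12 proliferation genes, with pair numbers beside the points, blue circles for library set 1 and orange squares for set 2. Early and late pairs overlap in each panel, and pair 1 is the highest for Myb and the lowest for Tubb4b.

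For each tested gene, the 3 genes whose log2 values were most like it over the 12 libraries were looked up by Pearson's r, as a description, since the libraries share pairs and sets. For Tubb4b these were Cdk5rap2 (r = 0.95), Rangap1 (0.93) and Tpx2 (0.93), of which Cdk5rap2 encodes a centrosome protein and Tpx2 a spindle protein. Tuba1a was most like Tubb2a (0.94), another tubulin, AC126937.2 (0.91) and Mef2a (0.91). Among the genes most like Rfx2 were Tssc4 (0.90) and Gpn3 (0.89). Rfx3 was most like Ybx2 (0.94), Gm38020 (0.92) and Taz (0.91), and Myb like Arhgap31 (0.95), Hebp2 (0.95) and Antxr1 (0.94). None of the 5 genes was among the nearest 3 of another. Among themselves the 5 genes had r from -0.64 (Myb and Tuba1a) to 0.38 (Rfx2 and Tubb4b).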

How the data were processed

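Stranded poly(A) RNA libraries of 12 organoid samples were used as deposited by the authors. The authors ran the nf-core pipeline for RNA-seq against GRCm38.p6 and its GENCODE annotation, and the deposited signal values are their DESeq2 normalized counts, made by the authors by dividing read counts by 1 size factor per library. Bcl2fastq and DESeq2 are named in the submitters' processing notes. Columns of the authors' own comparison (fold changes, standard errors, test statistics and p-values) were not used. What their batch factor was is not given in the sources used here, and library set was taken from the library numbers.

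Groups followed the treatment labels. The 10 genes and all gene lists were chosen with earlier results of these data known. The genes to be named were the 10, the called genes of each list if at most 5 and its 3 highest, tubulin paralogs, Cep63, Gmnc and the 3 most alike genes. The 3 highest are not printed in full for the lists of cell type markers, the airway epithelium and proliferation. One of the most alike genes and one pair of sequences are not reported here. The 13792 of 55401 genes that reached 10 normalized counts in 6 or more of the libraries were analysed with limma 3.58.1 in R 4.3.3 on log2(normalized count + 1), with trended robust eBayes and Benjamini-Hochberg adjustment over all of them at 0.05, and lower genes by exact permutation tests, all two-sided. Tests were tried on simulated data. A fold change on this scale understates the change of low genes.

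In each column, 100% of values were whole multiples of 1 step (tolerance 0.05). For 9 libraries these steps were accepted as giving whole reads, 23631212 to 29775699 per library, and edgeR 4.0.16 was run on them as an alternative. The steps of ablation 3, ablation 4 and control 4 were near 1 and were not accepted. Over the 12 libraries the floor of 3 reads came to 2.82 to 3.51 normalized counts, which covers counting error only. Nothing says that dishes of a group came from separate mice, so p-values measure the spread between these dishes and days. Of the versioned gene IDs, 98.1% were found in GENCODE M21, from which shared words were counted. How reads matching several genes were counted is not given in the sources used here.

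Pairs were checked by the correlation across genes of their deviations from the group means, which was 0.62, 0.49, 0.21, 0.32, 0.38 and 0.33 for pairs 1, 3, 4, 5, 6 and 7. As the labels give both dishes of a pair the same passage and culture day and all 6 values were over 0.1, the numbers were taken as pairs. Alternatives were the pair as replicate block, other pseudocounts, filters, scalings and variance models, edgeR, each library set alone and each library or pair left out. The combinations of the block with other settings and the interaction without it were added after seeing the data.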

Additional observations from a re-analysis of the deposited data

Results flagged for a closer look

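Among 21 groups of 6 libraries examined for the 10 genes and Trp73, 2 values lay far from the rest of their group by Dixon's criterion for the gap to the next value. For normally distributed values, chance gives about 1 such group in 20, a rate that does not hold for values at 0. Myb had 333 normalized counts in ablation 1 against 161 to 180 in the other 5 ablation libraries, a gap of 0.890 of the range, and control 1 had 299. Deup1 had 0.987 normalized counts, which is 1 read, in ablation 6 against 0 in the other 5 ablation libraries. With those at 0, any single read is flagged by this criterion, so the Deup1 flag carries no information. The causes were not tested.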

How the results depend on the processing

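Over 37 alternatives for each of the 5 tested genes (185 values), none was called (lowest adjusted p 0.0979), and 1 reversed, Myb without pair 3 in the paired model (0.000708). The number of genes called, 0 in the library set model, was 150 with the pair as replicate block, and with it 176, 90, 8, 77, 106 and 140 without pair 1, 3, 4, 5, 6 or 7, 16 and 109 with only library set 1 or 2, 150 and 161 with pseudocounts 0.5 and 8, 356 without the filter, 151 with TMM scaling, 168 with quantile normalization and 0 with plain eBayes (2190 at an unadjusted p under 0.05). Without the block it was 0 to 2 when 1 library was left out, 3 without the filter and 0 with edgeR on 9 libraries (807 at an unadjusted p under 0.05). The block changed no call among the 10 genes. For culture day the count was 3 without the filter and 1 with library set as covariate, and leaving out a pair reversed Rfx2 (range -0.129 to 0.0427, 0.000277 without pair 5), Myb (-0.428 to 0.0384) and Tubb4b (-0.0231 to 0.217). The interaction count of 1 became 0 with no replicate block. Leaving out 1 library gave differences of -0.0434 to 0.397 normalized counts for Mcidas, 2.45 to 3.93 for Ccno and -0.666 to 0.488 for Dnah5, and on the log2 scale Dnah5 reversed to 0.0815. The causes were not tested. Depth limits the 5 genes with means under 10, for which differences of a few reads could not be detected.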
